A study of Homo sapiens with 24 samples.

Results

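The genes described here are 48 genes of autophagy and the lysosome, taken by symbol from a list and found, 48 of 48, among the 25168 genes of the deposited count tables of 2 human pancreatic cancer cell lines, PANC1 and BXPC3. Their values did not choose them, but results of these data were known when the list was drawn up. All 48 passed the filter on low counts in both lines. They fall into 9 roles: receptors, ATG8 proteins, the enzymes that attach ATG8 proteins to lipid, the initiation kinase complex, the lipid kinase with its membrane supply, the MiT/TFE transcription factors, lysosomal membrane proteins, lysosomal hydrolases and the V-ATPase.

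Autophagy wraps cytoplasm in a double membrane and delivers it to the lysosome, where acid hydrolases break it down. A kinase complex starts the process, a lipid kinase marks the membrane, ATG8 proteins are attached to it, and receptors tie cargo to the ATG8 proteins. The lysosome is acidified by the V-ATPase, a proton pump, and many of its genes share a palindromic promoter element (CLEAR) that is bound by TFEB, TFE3 and MITF. Pancreatic cancer cells are known for high basal autophagy.

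Cells had been treated for 24 h with SR4 at 5 uM, with lonidamine at 300 uM, with both compounds, or with vehicle, and mRNA libraries were sequenced. SR4, a compound with a code name only, uncouples mitochondria, and lonidamine acts on complex II, on the export of monocarboxylates and on pyruvate entry into mitochondria. Each of the 8 groups held 3 libraries, so there were 24. Both lines are established cultures, both were grown in low-glucose medium with serum, and the labels name no genetic change for any group. The labels do not give the doses within the combination, and comparisons of the combination with a compound alone assume the same doses. The series' title names the purpose as a pair of treatments directed at the energy supply of pancreatic cancer.

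Libraries held 8873041 to 11822495 counts on genes. Levels are given as CPM, the counts of a gene relative to its library's total, scaled by TMM over all 24 libraries. Changes are log2 ratios with their standard errors (SE), n = 3 libraries per group, from edgeR's quasi-likelihood test, and a gene was called where its p adjusted by Benjamini-Hochberg over all genes tested was under 0.05. No label says whether replicates came from separate cultures, and the p-values therefore describe the spread of these libraries alone, which may be technical. With 3 libraries against 3, the smallest p of an exact permutation test is 0.1. In bulk RNA, fewer cells of a type and less RNA per cell cannot be told apart. Vehicle libraries of PANC1 held 17.0 ± 2.53 CPM of the epithelial gene CDH1 and 4064 ± 46.4 CPM of the mesenchymal gene VIM, and those of BXPC3 held 549 ± 22.1 and 67.3 ± 2.55 CPM (SD, n = 3 each). The 7 markers of immune, endothelial and fibroblast cells summed to at most 0.415 CPM in any PANC1 library. In BXPC3 the sum was 1.15 to 1.59 CPM with SR4, at most 0.619 CPM with lonidamine, at most 0.463 CPM with both and 9.92 to 11.1 CPM with vehicle. CDH5, an endothelial cadherin, made up most of the vehicle sum, at 8.18 ± 0.702 CPM, and its part in the results was not tested. The 3 epithelial markers summed to 295 to 349 CPM with SR4, 185 to 199.98 CPM with lonidamine, 137 to 152 CPM with both and 696 to 740.2 CPM with vehicle in PANC1. In BXPC3 that sum was 1350.3 to 1373 CPM with SR4, 1494 to 1591 CPM with lonidamine, 1269 to 1301 CPM with both and 2018 to 2184 CPM with vehicle. The 2 mesenchymal markers summed to 4348 to 4904 CPM with SR4, 3400.4 to 3469 CPM with lonidamine, 2725 to 2744 CPM with both and 4088 to 4176 CPM with vehicle in PANC1. In BXPC3 they summed to 73.9 to 77.99 CPM with SR4, 59.9 to 67.3 CPM with lonidamine, 139 to 143 CPM with both and 66.1 to 71.7 CPM with vehicle. The genes within a sum did not always move alike. In BXPC3, mean levels with both compounds and with vehicle were 518 and 1311 CPM for KRT19. They were 465 and 549 CPM for CDH1 and 301 and 222 CPM for EPCAM. PANC1 means in the same order were 122 and 679 CPM for KRT19, 3.72 and 17.0 CPM for CDH1 and 18.1 and 28.1 CPM for EPCAM. There VIM had 2613 and 4064 CPM, and ZEB1 had 123 and 59.5 CPM. The part of these changes in the results was not tested.

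Across the 48 genes the treatments raised more members than they lowered. In PANC1, SR4 raised 27 and lowered 11 members, where 35.0% of all genes tested rose and 36.7% fell. Lonidamine raised 32 and lowered 6 members in PANC1, against 35.0% and 34.2% of all genes. With both compounds 29 members rose and 12 fell in PANC1, against 40.1% and 40.9% of all genes. In BXPC3, SR4 raised 32 and lowered 6 members, against 33.4% and 33.9% of all genes. Lonidamine raised 30 and lowered 7 members in BXPC3, where 34.8% of all genes rose and 32.7% fell. The combination raised 34 and lowered 9 members in BXPC3, against 39.7% and 39.5% of all genes. The 3 treatments of a line share their vehicle libraries, so their counts are not independent of each other.

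The median change of the members with both compounds was 0.36 log2 in PANC1 and 0.58 log2 in BXPC3, while the median over all genes tested was -0.02 and -0.00 log2. With SR4 the members' median was 0.17 log2 in PANC1 and 0.32 log2 in BXPC3, and with lonidamine it was 0.30 and 0.21 log2 in the same order. With both compounds the median absolute change was 0.55 log2 for members and 0.62 log2 for all genes in PANC1, and 0.70 and 0.58 log2 in BXPC3. A rise of at least 2-fold with both compounds was seen in 12 members in PANC1, against 14.0% of all genes, and in 10 in BXPC3, against 12.7%. A fall of that size was seen in 0 members in PANC1, where 16.5% of all genes fell so far, and in 3 in BXPC3, where 15.1% did. Summed over the 48 genes, the level in PANC1 was 8414 ± 137 CPM with SR4, 7874 ± 78.7 CPM with lonidamine, 8895 ± 93.2 CPM with both and 5427 ± 67.9 CPM with vehicle (SD, n = 3 each). The BXPC3 sums were 8472 ± 27.3, 6988 ± 108, 9523 ± 76.8 and 5918 ± 69.9 CPM in the same order. Such sums are weighted to abundant genes. Receptors summed to 3687 CPM with both compounds and 1243 CPM with vehicle in PANC1, and to 3318 and 1013 CPM in BXPC3. SQSTM1 gave most of that rise, as its values below show. Hydrolases were at 1166 and 1584 CPM in PANC1 and 1613 and 1901 CPM in BXPC3. The V-ATPase sum was 575 and 664 CPM in PANC1 and 992 and 846 CPM in BXPC3.

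**Figure D1:**
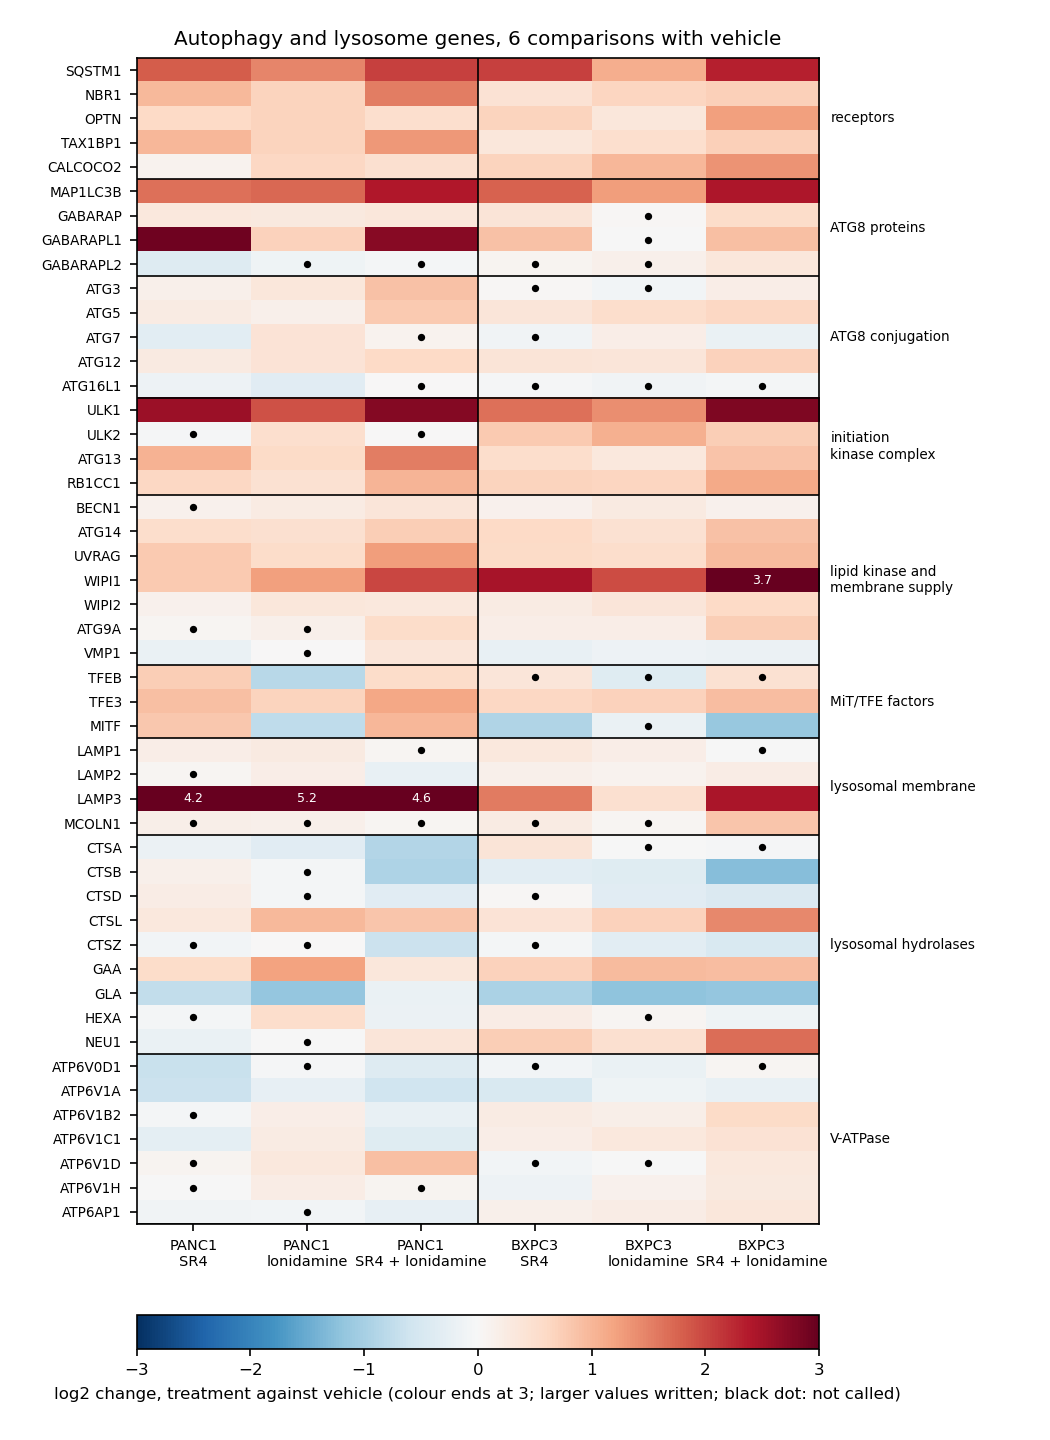
Log2 change of each of the 48 genes (rows, by role) in the 3 treatments against vehicle in PANC1 and in BXPC3 (columns); red is higher with treatment, blue lower, a black dot marks a change that was not called, and the colour ends at 3. Receptors are red in every column, hydrolases are mixed, and V-ATPase genes are mostly blue in PANC1 with both compounds and mostly red in BXPC3 with both compounds.

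Promoters were read to show which members carry the CLEAR element, since the list holds both its binding factors and its reported targets. RefSeq windows on GRCh38.p14, from 250 bases before to 50 bases after a start site, were at hand for 38 of the 48 genes. The E-box core CACGTG, which is its own reverse complement, was found in windows of 9 members (23.7%) and of 8.78% of 27303 genes. The CLEAR core TCACGTGA, an E-box with both flanks and also its own reverse complement, was found in 6 members (15.8%) and in 1.18% of genes. These were ATG3, LAMP1, MCOLN1, CTSA, GAA and ATP6V0D1, and every CLEAR match holds an E-box match. TGATGNAA, a core bound by ATF4 dimers, was searched on both strands and found in 0 members and in 4.46% of genes. TGACNNNGC, the antioxidant element bound by NRF2, was found on either strand in 10 members (26.3%) and in 16.1% of genes. Of those 10, MAP1LC3B and CALCOCO2 are autophagy genes and the other 8 are lysosomal. A match describes letters only. The 27303 genes were not limited to those that passed the filter on low counts, as all members did. Because the list holds reported CLEAR targets, the shares are a description without a test. The windows of LAMP1 (chr13:113296989-113297288, plus strand), MCOLN1 (chr19:7522374-7522673, plus strand), GAA (chr17:80101331-80101630, plus strand) and ATG3 (chr3:112561913-112562212, minus strand) are printed because they hold CLEAR matches, and those of SQSTM1 (chr5:179806143-179806442, plus strand) and WIPI1 (chr17:68457447-68457746, minus strand) because these genes were among the largest rises. Each runs 5′ to 3′ on the gene's strand, and capitals mark E-box and CLEAR matches.
LAMP1: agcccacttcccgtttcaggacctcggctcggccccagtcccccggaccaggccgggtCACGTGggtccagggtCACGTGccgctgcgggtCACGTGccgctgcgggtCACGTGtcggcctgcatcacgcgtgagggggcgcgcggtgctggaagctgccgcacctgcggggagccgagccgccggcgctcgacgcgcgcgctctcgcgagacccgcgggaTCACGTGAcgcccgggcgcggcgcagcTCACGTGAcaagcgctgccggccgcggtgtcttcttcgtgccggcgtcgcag
MCOLN1: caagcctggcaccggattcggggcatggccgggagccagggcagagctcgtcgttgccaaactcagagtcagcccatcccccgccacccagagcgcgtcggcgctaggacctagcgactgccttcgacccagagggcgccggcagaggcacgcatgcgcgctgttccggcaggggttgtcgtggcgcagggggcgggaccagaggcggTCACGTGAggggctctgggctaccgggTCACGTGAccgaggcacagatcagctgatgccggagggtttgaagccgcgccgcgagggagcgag
GAA: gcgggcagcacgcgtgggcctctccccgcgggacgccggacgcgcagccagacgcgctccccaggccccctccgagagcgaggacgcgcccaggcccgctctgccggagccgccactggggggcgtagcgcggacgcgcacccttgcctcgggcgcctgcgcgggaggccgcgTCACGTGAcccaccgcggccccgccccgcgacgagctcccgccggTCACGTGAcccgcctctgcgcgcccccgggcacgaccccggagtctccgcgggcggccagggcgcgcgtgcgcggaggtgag
ATG3: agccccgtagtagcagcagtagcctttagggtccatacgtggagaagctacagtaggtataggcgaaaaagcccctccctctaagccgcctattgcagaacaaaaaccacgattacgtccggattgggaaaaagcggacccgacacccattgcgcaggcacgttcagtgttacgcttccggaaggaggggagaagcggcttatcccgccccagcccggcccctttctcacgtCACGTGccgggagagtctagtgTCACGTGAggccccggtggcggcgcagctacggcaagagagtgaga
SQSTM1: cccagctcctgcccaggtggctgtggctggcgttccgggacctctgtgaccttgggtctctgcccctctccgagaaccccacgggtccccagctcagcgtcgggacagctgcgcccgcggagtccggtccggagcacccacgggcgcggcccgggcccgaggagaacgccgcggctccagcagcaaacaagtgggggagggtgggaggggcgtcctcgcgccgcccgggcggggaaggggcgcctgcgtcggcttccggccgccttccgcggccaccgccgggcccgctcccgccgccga
WIPI1: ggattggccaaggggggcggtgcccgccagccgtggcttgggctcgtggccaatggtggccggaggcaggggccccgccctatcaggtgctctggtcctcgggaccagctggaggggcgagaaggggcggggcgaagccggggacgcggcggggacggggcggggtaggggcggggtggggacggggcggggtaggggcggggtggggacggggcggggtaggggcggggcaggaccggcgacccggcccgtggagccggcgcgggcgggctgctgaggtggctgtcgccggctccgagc

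The LAMP1 window holds 6 E-boxes, of which 2 are CLEAR matches, beginning 29 and 2 bases before the start site. The CLEAR matches of MCOLN1 begin 42 and 15 bases before it and those of GAA 77 and 32 bases before it. The SQSTM1 and WIPI1 windows hold none of the E-box, CLEAR, TGATGNAA or TGACNNNGC letters. Sequence outside the windows was not searched, so an element farther from the start site would be missed. Genes with a CLEAR match did not move one way with both compounds. GAA and ATG3 rose in both lines, and MCOLN1 rose in BXPC3 alone. CTSA and ATP6V0D1 fell in PANC1 alone, and LAMP1 was called in neither line, as given below with their values.

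**Figure D2:**
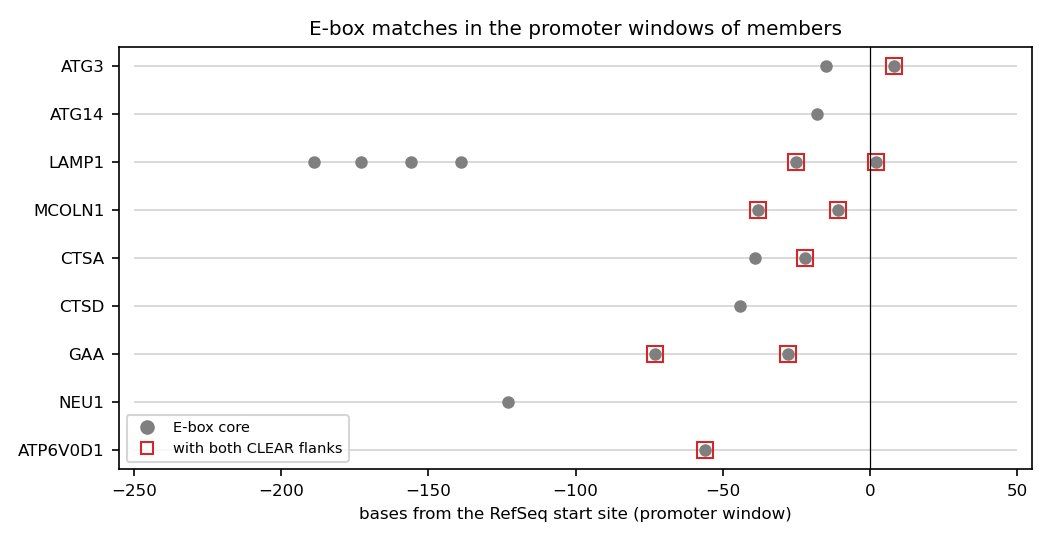
Positions of E-box cores (grey dots) and of those with both CLEAR flanks (red squares) in the promoter windows of the 9 members that hold any; the horizontal axis is the distance in bases from the RefSeq start site, at 0. All CLEAR matches begin between 77 bases before and 4 bases after the start site, and LAMP1 has the most E-boxes, 6.

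The 5 receptors on the list link ubiquitin-tagged or other cargo to ATG8 proteins. All 5 were called higher in each of the 6 comparisons with vehicle, where 33.4% to 40.1% of all genes rose per comparison. This was not particular to receptors, since 19 members of the list, these 5 included, rose in all 6. The share of all genes that did so was not counted, and treatments of a line share vehicle libraries. The median change of the 5 receptors with both compounds was 1.30 log2 in PANC1 and 1.23 log2 in BXPC3. SQSTM1 (p62), the receptor whose protein is itself degraded by autophagy, was the most abundant receptor per kilobase in both vehicles, at 81.7 CPM per kb in PANC1 and 60.3 in BXPC3. In PANC1, SQSTM1 had 2163, 2184 and 2248 CPM with SR4, 1837, 1691 and 1721 CPM with lonidamine, 2452, 2547 and 2460.1 CPM with both and 616, 632 and 626 CPM with vehicle. BXPC3 libraries held 1928, 1901 and 1909 CPM with SR4, 981, 948 and 989.7 CPM with lonidamine, 2302, 2262 and 2305 CPM with both and 469, 476 and 438 CPM with vehicle. No treated library overlapped the vehicle libraries of its line, and the combination was highest in both lines. The rise in PANC1 was 1.82 ± 0.035 log2 with SR4, 1.47 ± 0.035 with lonidamine and 2.04 ± 0.035 with both. In BXPC3 it was 2.05 ± 0.031, 1.09 ± 0.031 and 2.32 ± 0.031 log2 in the same order, and the largest of the 6 adjusted p-values was 2.64e-21. SQSTM1 lies on chromosome 5, 179806398 to 179838078 (GRCh38), where MGAT4B on the other strand overlaps it. MGAT4B changed by -0.72 log2 in PANC1 and 0.82 log2 in BXPC3 with both compounds, at a mean of 163 CPM over all libraries.

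NBR1, a receptor related to SQSTM1 (chromosome 17, 43170481 to 43211689), had 160.4, 169 and 161 CPM with SR4, 131, 132 and 141 CPM with lonidamine, 234, 232 and 234 CPM with both and 83.0, 85.1 and 81.6 CPM with vehicle in PANC1. Its BXPC3 values were 185, 196 and 199 CPM with SR4, 221, 227 and 218 CPM with lonidamine, 244, 230.2 and 228 CPM with both and 136, 149 and 146 CPM with vehicle. Treated libraries all lay above vehicle, by more in PANC1 with both compounds, where the rise was 1.53 ± 0.041 log2, than in BXPC3, where it was 0.71 ± 0.043 log2. The difference between the lines was 0.79 ± 0.061 log2 (adjusted p = 3.93e-14). TAX1BP1, a receptor for protein aggregates, rose with both compounds by 1.30 ± 0.035 log2 in PANC1 and 0.72 ± 0.037 in BXPC3. OPTN (optineurin), a receptor in the removal of mitochondria, rose by 0.50 ± 0.048 and 1.23 ± 0.043 log2 in the same order. CALCOCO2 (NDP52), a receptor for bacteria and mitochondria, rose by 0.48 ± 0.043 log2 in PANC1 and 1.34 ± 0.051 in BXPC3. For OPTN and CALCOCO2 the response was smaller in PANC1, by 0.77 ± 0.067 and 0.90 ± 0.068 log2. The rise of CALCOCO2 with SR4 in PANC1 was 0.10 ± 0.044 log2, and the call ended without vehicle replicate 2 or 3 or lonidamine replicate 2 or SR4 replicate 1 or combination replicate 2 or 3, or by DESeq2's test (adjusted p of up to 0.283).

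**Figure D3:**
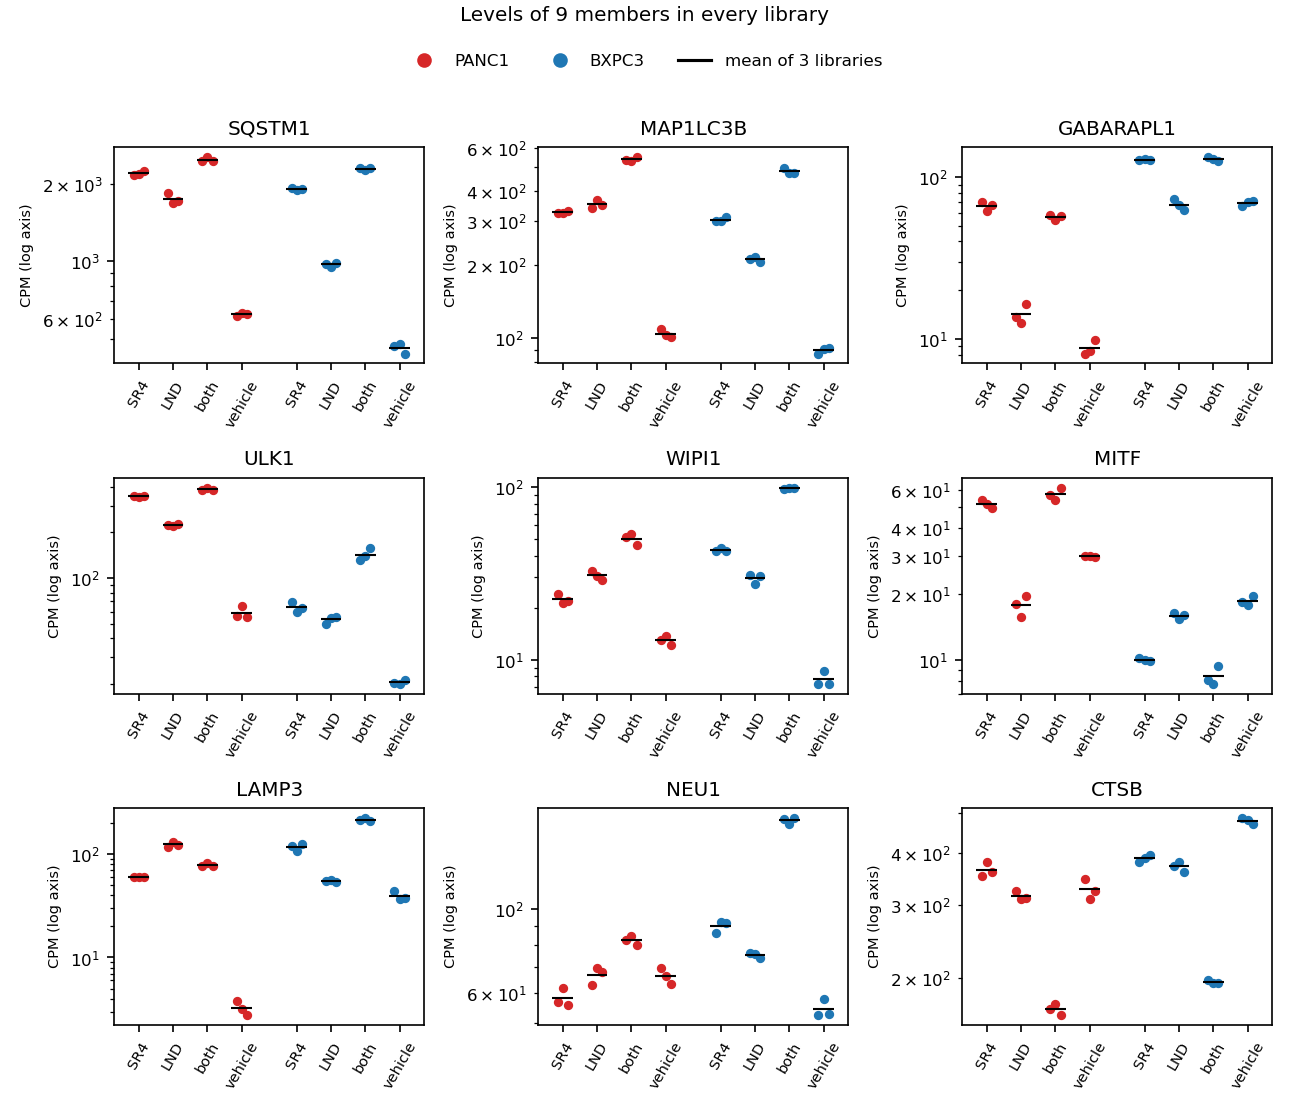
CPM of 9 genes in every library (points) on log axes, with PANC1 in red on the left of each panel and BXPC3 in blue on the right, and in each line SR4, lonidamine (LND), both compounds and vehicle from left to right; black lines are means of 3 libraries. Vehicle libraries of SQSTM1, MAP1LC3B, ULK1, WIPI1 and LAMP3 lie below all treated libraries of their line, MITF goes up in PANC1 and down in BXPC3 with both compounds, and CTSB is lowest with both compounds in each line.

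ATG8 proteins are the small ubiquitin-like proteins that coat the growing membrane, and their mRNAs did not move alike. With both compounds 3 of 4 rose in PANC1 and 4 of 4 in BXPC3, against 40.1% and 39.7% of all genes. MAP1LC3B, which encodes LC3B, the usual marker of autophagosomes, had 324, 325 and 331 CPM with SR4, 341, 367 and 349 CPM with lonidamine, 536, 531 and 550.0 CPM with both and 109, 104 and 101 CPM with vehicle in PANC1. The same gene had 302, 300.1 and 311 CPM with SR4, 211, 214 and 205 CPM with lonidamine, 495, 471 and 473 CPM with both and 86.7, 90.3 and 91.3 CPM with vehicle in BXPC3. All treated libraries lay far above vehicle in both lines. With both compounds the rise was 2.41 ± 0.040 log2 in PANC1 and 2.43 ± 0.039 log2 in BXPC3, and the difference between the lines, -0.06 ± 0.056 log2, was not called (adjusted p = 0.384). SR4 alone raised it by 1.64 ± 0.040 log2 in PANC1 and 1.76 ± 0.039 in BXPC3, and lonidamine alone by 1.73 ± 0.040 and 1.25 ± 0.040. MAP1LC3B (chromosome 16, 87391800 to 87404779) is overlapped on the other strand by FBXO31, which rose by 0.83 log2 in PANC1 and 0.57 log2 in BXPC3 with both compounds, at a mean of 30.1 CPM.

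GABARAPL1, an ATG8 protein of the GABARAP branch (chromosome 12, 10212458 to 10223130), stood apart between the lines. In PANC1 it had 70.4, 61.8 and 67.4 CPM with SR4, 13.7, 12.6 and 16.5 CPM with lonidamine, 58.0, 54.4 and 57.8 CPM with both and 8.11, 8.37 and 9.87 CPM with vehicle. In BXPC3 it had 128, 129 and 127 CPM with SR4, 73.0, 67.3 and 62.6 CPM with lonidamine, 133, 129.9 and 125 CPM with both and 66.1, 70.4 and 71.1 CPM with vehicle. Vehicle levels were far lower in PANC1, and lonidamine libraries overlapped vehicle in BXPC3. The vehicle level differed by -2.98 ± 0.088 log2 between PANC1 and BXPC3 (adjusted p = 3.63e-28). GABARAPL1 rose by 2.92 ± 0.095 log2 with SR4 and 2.74 ± 0.096 with both compounds in PANC1, and by 0.88 ± 0.050 and 0.91 ± 0.051 in BXPC3. Lonidamine gave 0.69 ± 0.12 log2 in PANC1 and -0.02 ± 0.054 in BXPC3, where the adjusted p was 0.768. GABARAP rose in PANC1 by 0.31 ± 0.057, 0.29 ± 0.056 and 0.34 ± 0.056 log2 with SR4, lonidamine and both. In BXPC3 GABARAP rose by 0.39 ± 0.059 with SR4 and 0.56 ± 0.060 with both, and lonidamine gave 0.04 ± 0.062 (adjusted p = 0.535). GABARAPL2 fell by 0.40 ± 0.074 log2 with SR4 in PANC1 and rose by 0.34 ± 0.065 with both compounds in BXPC3, and its other 4 changes lay between -0.14 and 0.14 log2 and were not called. GABARAPL2 shares its locus with TMEM231 on the other strand, which rose with both compounds by 0.76 log2 in PANC1 and 0.59 in BXPC3 at a mean of 16.7 CPM.

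The enzymes that attach ATG8 proteins to lipid changed by less than 2-fold in every comparison with vehicle. ATG7 activates ATG8 proteins, ATG3 passes them to the lipid, and the complex of ATG5, ATG12 and ATG16L1 directs the transfer. With both compounds 3 of 5 rose and 0 fell in PANC1, against 40.1% and 40.9% of all genes. In BXPC3, 3 rose and 1 fell, against 39.7% and 39.5%. ATG3 (chromosome 3, 112532509 to 112562046) had 98.8, 109 and 110.5 CPM with SR4, 119, 125 and 123 CPM with lonidamine, 168, 173 and 171 CPM with both and 95.8, 97.7 and 92.4 CPM with vehicle in PANC1. BXPC3 libraries had 84.5, 78.4 and 86.2 CPM of ATG3 with SR4, 76.8, 69.1 and 81.8 CPM with lonidamine, 92.6, 93.9 and 90.3 CPM with both and 82.2, 82.6 and 77.5 CPM with vehicle. The combination libraries lay above vehicle in both lines, while SR4 and lonidamine libraries overlapped vehicle in BXPC3. With both compounds ATG3 rose by 0.89 ± 0.044 log2 in PANC1 and 0.20 ± 0.057 in BXPC3.

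ATG5 (chromosome 6, 106184476 to 106325820) had 94.5, 103 and 88.8 CPM with SR4, 90.1, 90.4 and 90.9 CPM with lonidamine, 133, 136 and 129.9 CPM with both and 80.4, 77.5 and 82.1 CPM with vehicle in PANC1. Its values in BXPC3 were 45.2, 47.8 and 47.1 CPM with SR4, 48.2, 53.1 and 53.1 CPM with lonidamine, 59.1, 53.0 and 53.3 CPM with both and 35.4, 37.0 and 36.6 CPM with vehicle. Treated libraries lay above vehicle in each comparison, and in PANC1 the combination libraries lay above all others. The rise with both was 0.78 ± 0.048 log2 in PANC1 and 0.61 ± 0.064 in BXPC3. ATG12 rose by 0.60 ± 0.055 and 0.70 ± 0.061 log2 with both compounds in the same order. ATG7 gave 0.11 ± 0.068 log2 in PANC1 (adjusted p = 0.151) and fell by 0.21 ± 0.087 in BXPC3, a call that ended without vehicle replicate 1 or combination replicate 1 or 3, or by DESeq2's test (adjusted p of up to 0.165). ATG16L1 fell by 0.35 ± 0.058 log2 with lonidamine in PANC1, and with both compounds its change was 0.00 ± 0.056 log2 in PANC1 and -0.07 ± 0.075 in BXPC3, not called in either. ATG3, ATG7 and ATG12 are each overlapped on the other strand by a gene at a mean of 53.3 to 69.2 CPM over all libraries.

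The initiation complex rose, led by its kinase ULK1. With both compounds 3 of 4 members rose in PANC1 and 4 of 4 in BXPC3, against 40.1% and 39.7% of all genes. None fell in either line, against 40.9% of all genes in PANC1 and 39.5% in BXPC3. ULK1, the kinase that starts autophagy (chromosome 12, 131894651 to 131923167), had 348, 342 and 346 CPM with SR4, 224, 219 and 228 CPM with lonidamine, 378, 395 and 380.1 CPM with both and 55.7, 65.2 and 54.8 CPM with vehicle in PANC1. ULK1 values in BXPC3 were 69.6, 59.95 and 63.6 CPM with SR4, 49.6, 54.5 and 55.3 CPM with lonidamine, 132, 139 and 156 CPM with both and 20.3, 19.8 and 21.1 CPM with vehicle. Every treated library lay above every vehicle library of its line. In PANC1 ULK1 rose by 2.56 ± 0.049 log2 with SR4, 1.91 ± 0.049 with lonidamine and 2.76 ± 0.048 with both. The rises in BXPC3 were 1.65 ± 0.080, 1.39 ± 0.083 and 2.81 ± 0.074 log2 in the same order. With both compounds the difference between the lines, -0.09 ± 0.093 log2, was not called (adjusted p = 0.441), while with SR4 it was 0.90 ± 0.098 log2 (adjusted p = 4.51e-10). The vehicle level was 1.52 ± 0.077 log2 higher in PANC1.

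ATG13, the subunit that joins ULK1 to its scaffold (chromosome 11, 46617527 to 46674818), had 134, 137 and 126 CPM with SR4, 97.4, 92.7 and 99.9 CPM with lonidamine, 179, 180.3 and 180.0 CPM with both and 63.3, 66.5 and 63.7 CPM with vehicle in PANC1. The BXPC3 libraries held 175, 180.3 and 176 CPM of ATG13 with SR4, 153, 157 and 149 CPM with lonidamine, 214, 219.7 and 227 CPM with both and 121, 126 and 123 CPM with vehicle. Treated libraries lay above vehicle throughout and were highest with both compounds. The rise with both was 1.53 ± 0.046 log2 in PANC1 and 0.85 ± 0.040 in BXPC3, a difference of 0.64 ± 0.060 log2. RB1CC1 (FIP200), the scaffold, rose by 1.01 ± 0.036 and 1.13 ± 0.048 log2 with both compounds. ULK2, a second kinase of the family, had 23.5, 21.1 and 20.3 CPM with SR4, 26.0, 27.5 and 24.6 CPM with lonidamine, 21.4, 21.1 and 20.5 CPM with both and 12.5, 13.8 and 11.5 CPM with vehicle in BXPC3. In PANC1 ULK2 had 28.6, 28.9 and 29.4 CPM with SR4, 41.2, 42.9 and 42.1 CPM with lonidamine, 29.5, 25.3 and 31.8 CPM with both and 28.6, 29.9 and 29.9 CPM with vehicle. All treated libraries lay above vehicle in BXPC3, and only the lonidamine libraries did in PANC1, where the others overlapped vehicle. ULK2 rose in BXPC3 by 0.77 ± 0.096 with SR4, 1.06 ± 0.093 with lonidamine and 0.74 ± 0.099 log2 with both. In PANC1 ULK2 rose by 0.49 ± 0.073 log2 with lonidamine, and gave -0.03 ± 0.079 with SR4 and 0.02 ± 0.077 with both (adjusted p = 0.775 and 0.827).

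In the lipid kinase and membrane group WIPI1 changed most. With both compounds 7 of 7 members rose in PANC1, against 40.1% of all genes. In BXPC3, 6 rose and 1 fell, against 39.7% and 39.5%. WIPI1, which binds the phosphorylated lipid that the kinase makes (chromosome 17, 68420948 to 68457513), had 23.9, 21.5 and 21.8 CPM with SR4, 32.9, 30.4 and 29.1 CPM with lonidamine, 51.4, 53.2 and 46.3 CPM with both and 12.9, 13.8 and 12.1 CPM with vehicle in PANC1. WIPI1 stood in BXPC3 at 42.4, 44.6 and 42.8 CPM with SR4, 30.9, 27.6 and 30.5 CPM with lonidamine, 97.4, 99.0 and 99.3 CPM with both and 7.21, 8.66 and 7.28 CPM with vehicle. All treated libraries lay above vehicle, and BXPC3 combination libraries were highest of all although BXPC3 vehicle libraries were lowest. The rise in PANC1 was 0.79 ± 0.099 log2 with SR4, 1.23 ± 0.091 with lonidamine and 2.003 ± 0.085 with both. In BXPC3 it was 2.48 ± 0.085, 1.96 ± 0.091 and 3.68 ± 0.077 log2 in the same order. With both compounds the response was lower in PANC1 by 1.72 ± 0.13 log2 (adjusted p = 8.03e-15). PRKAR1A on the other strand overlaps WIPI1, at a mean of 269 CPM, and changed by -0.30 log2 in PANC1 and -0.10 log2 in BXPC3 with both compounds.

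UVRAG, a subunit of one form of the lipid kinase (chromosome 11, 75815167 to 76143195), had 71.7, 79.0 and 75.7 CPM with SR4, 61.3, 71.3 and 63.3 CPM with lonidamine, 96.7, 104 and 105 CPM with both and 49.5, 40.7 and 41.3 CPM with vehicle in PANC1. BXPC3 gave 43.5, 44.8 and 47.0 CPM with SR4, 46.2, 44.4 and 38.7 CPM with lonidamine, 59.0, 60.8 and 54.1 CPM with both and 31.7, 28.7 and 29.6 CPM with vehicle for UVRAG. No treated library overlapped vehicle. UVRAG rose with both compounds by 1.26 ± 0.066 log2 in PANC1 and 0.96 ± 0.071 in BXPC3. ATG14, the subunit of the form that starts autophagosomes, rose by 0.73 ± 0.086 and 0.88 ± 0.073 log2 in the same order. BECN1, the subunit common to both forms, rose by 0.36 ± 0.060 log2 in PANC1 and by 0.13 ± 0.053 in BXPC3, where the call ended without vehicle replicate 1 or combination replicate 1 or 3, or by DESeq2's test (adjusted p of up to 0.0915). WIPI2, which recruits the conjugation complex, rose by 0.32 ± 0.048 log2 in PANC1 and 0.59 ± 0.052 in BXPC3, and ATG9A, a lipid scramblase carried on vesicles, by 0.56 ± 0.067 and 0.74 ± 0.069. VMP1, a scramblase of the endoplasmic reticulum, had 56.8, 64.4 and 57.4 CPM with SR4, 69.6, 70.3 and 72.0 CPM with lonidamine, 83.3, 90.5 and 83.7 CPM with both and 70.3, 69.9 and 65.7 CPM with vehicle in PANC1. VMP1 in BXPC3 was at 56.8, 50.6 and 50.1 CPM with SR4, 54.0, 56.0 and 51.9 CPM with lonidamine, 55.2, 51.5 and 53.4 CPM with both and 56.8, 61.3 and 64.5 CPM with vehicle. Combination libraries lay above vehicle in PANC1, where those with SR4 lay below it, and all treated libraries lay below vehicle in BXPC3. With both compounds VMP1 rose by 0.37 ± 0.053 log2 in PANC1 and fell by 0.18 ± 0.063 in BXPC3, and the second call ended without vehicle replicate 3 or combination replicate 2 (adjusted p of up to 0.0687). VMP1 shares its locus with MIR21 and PTRH2, and BECN1 with PSME3, at means of 35.1, 24.1 and 181 CPM.

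The MiT/TFE factors, which switch on lysosomal and autophagy genes from the nucleus, differed from each other. With both compounds 3 of 3 rose in PANC1, against 40.1% of all genes. In BXPC3, 1 rose and 1 fell, against 39.7% and 39.5%. TFE3 (chromosome X, 49028726 to 49043486) had 126, 126 and 119.9 CPM with SR4, 113, 102 and 101 CPM with lonidamine, 142, 149 and 135 CPM with both and 64.0, 69.9 and 63.4 CPM with vehicle in PANC1. Levels of TFE3 in BXPC3 were 112, 107 and 113 CPM with SR4, 121, 114 and 110.3 CPM with lonidamine, 134, 139 and 135 CPM with both and 70.5, 75.1 and 70.8 CPM with vehicle. TFE3 libraries lay above vehicle with each treatment in both lines. Its rise with both compounds was 1.16 ± 0.054 log2 in PANC1 and 0.92 ± 0.048 in BXPC3.

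MITF, known as the melanocyte factor of the family (chromosome 3, 69739435 to 69968337), went in opposite directions in the lines with SR4 and with both compounds. In PANC1 MITF had 54.1, 51.8 and 49.6 CPM with SR4, 18.0, 15.7 and 19.5 CPM with lonidamine, 57.0, 54.1 and 61.4 CPM with both and 29.9, 30.005 and 29.5 CPM with vehicle. In BXPC3 MITF had 10.2, 9.97 and 9.84 CPM with SR4, 16.3, 15.4 and 16.1 CPM with lonidamine, 8.10, 7.72 and 9.37 CPM with both and 18.4, 17.8 and 19.5 CPM with vehicle. SR4 and combination libraries lay above vehicle in PANC1 and below it in BXPC3, and lonidamine libraries lay below vehicle in both lines. MITF rose in PANC1 by 0.80 ± 0.073 log2 with SR4 and 0.996 ± 0.070 with both, and fell by 0.76 ± 0.084 with lonidamine. In BXPC3 it fell by 0.90 ± 0.10 log2 with SR4 and 1.14 ± 0.11 with both, and lonidamine gave -0.21 ± 0.095 (adjusted p = 0.0549). The difference between the lines was 1.69 ± 0.12 log2 with SR4 and 2.09 ± 0.13 log2 with both compounds (adjusted p = 8.70e-15 and 1.89e-17).

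TFEB, the factor most tied to lysosomal genes, was the least abundant member, at a mean of 4.71 ± 0.856 CPM with SR4, 1.61 ± 0.626 CPM with lonidamine, 3.996 ± 0.0918 CPM with both and 2.85 ± 1.12 CPM with vehicle in PANC1 (SD, n = 3 each). Its BXPC3 means over the 4 groups were 0.960 to 1.69 CPM. TFEB rose in PANC1 by 0.73 ± 0.25 log2 with SR4 and 0.54 ± 0.25 with both, and fell by 0.84 ± 0.30 with lonidamine. The call with SR4 ended without vehicle replicate 1 or 3 or SR4 replicate 2 (adjusted p of up to 0.0686). That with lonidamine ended without vehicle replicate 2 or lonidamine replicate 2 or 3 (adjusted p of up to 0.195), and that with both ended without vehicle replicate 1 or 3 or SR4 replicate 1 or 3 or combination replicate 1, 2 or 3, or by DESeq2's test (adjusted p of up to 0.207). In BXPC3 TFEB changed by 0.37 ± 0.32, -0.35 ± 0.36 and 0.45 ± 0.33 log2 with SR4, lonidamine and both, none of them called.

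Lysosomal membrane proteins gave the largest rise of the list, that of LAMP3. With both compounds 1 of 4 rose and 1 fell in PANC1, against 40.1% and 40.9% of all genes. In BXPC3, 3 rose, against 39.7%. LAMP3 (DC-LAMP), a glycoprotein known as induced by stress of the endoplasmic reticulum (chromosome 3, 183122213 to 183163839), had 60.2, 59.4 and 60.2 CPM with SR4, 118, 130.2 and 122 CPM with lonidamine, 76.4, 81.3 and 76.5 CPM with both and 3.80, 3.15 and 2.79 CPM with vehicle in PANC1. LAMP3 had 118, 107 and 123 CPM with SR4, 54.5, 55.6 and 54.0 CPM with lonidamine, 213, 221 and 207 CPM with both and 44.1, 36.3 and 37.2 CPM with vehicle in BXPC3. All treated libraries lay above vehicle, with lonidamine highest in PANC1 and the combination highest in BXPC3. In PANC1 the rise was 4.20 ± 0.100 log2 with SR4, 5.22 ± 0.088 with lonidamine and 4.63 ± 0.094 with both. In BXPC3 it was 1.56 ± 0.064, 0.49 ± 0.070 and 2.45 ± 0.061 log2 in the same order. The lines differed in response to lonidamine by 4.76 ± 0.13 log2 (adjusted p = 7.93e-27), from a vehicle level that was 3.59 ± 0.12 log2 lower in PANC1.

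MCOLN1, the calcium channel of the lysosome (chromosome 19, 7522626 to 7534009), had 9.42, 10.3 and 8.58 CPM with SR4, 9.34, 8.78 and 9.79 CPM with lonidamine, 8.81, 7.87 and 8.55 CPM with both and 8.42, 8.48 and 8.05 CPM with vehicle in PANC1. The channel gene had 8.53, 9.13 and 6.72 CPM with SR4, 7.74, 6.41 and 7.08 CPM with lonidamine, 11.7, 12.7 and 11.7 CPM with both and 5.86, 8.37 and 6.36 CPM with vehicle in BXPC3. Combination libraries lay above vehicle in BXPC3 and overlapped it in PANC1. MCOLN1 rose by 0.82 ± 0.15 log2 with both compounds in BXPC3, and its other 5 changes, 0.06 to 0.24 log2, were not called. PNPLA6 overlaps it on the same strand at a mean of 70.2 CPM and rose by 0.51 log2 in BXPC3 with both compounds. LAMP1, a main glycoprotein of the lysosomal membrane, rose with SR4 and with lonidamine by 0.19 ± 0.038 and 0.27 ± 0.038 log2 in PANC1 and by 0.31 ± 0.033 and 0.19 ± 0.033 in BXPC3. With both compounds LAMP1 gave 0.07 ± 0.038 log2 in PANC1 and -0.01 ± 0.033 in BXPC3 (adjusted p = 0.115 and 0.790). LAMP2, which also serves in chaperone-mediated autophagy, had 409, 449 and 418 CPM with SR4, 467, 467 and 479 CPM with lonidamine, 348, 336 and 333 CPM with both and 416, 405 and 397 CPM with vehicle in PANC1. LAMP2 in BXPC3 was at 444, 443 and 445 CPM with SR4, 429.9, 434 and 411 CPM with lonidamine, 472, 468 and 444 CPM with both and 390.3, 399 and 410.4 CPM with vehicle. Combination libraries lay below vehicle in PANC1, and all treated libraries lay above it in BXPC3. LAMP2 fell by 0.21 ± 0.037 log2 in PANC1 and rose by 0.21 ± 0.034 in BXPC3 with both compounds.

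Hydrolases, the enzymes of degradation, went both ways. With both compounds 6 of 9 fell and 3 rose in PANC1, where 40.9% of all genes fell and 40.1% rose. In BXPC3, 5 of 9 fell and 3 rose, where 39.5% of all genes fell and 39.7% rose. HEXA, counted among those that fell in each line, lost its calls under alternatives given below. Their summed level was 1166 ± 41.7 CPM with both compounds and 1584 ± 33.1 CPM with vehicle in PANC1, and 1613 ± 13.5 and 1901 ± 58.2 CPM in BXPC3 (SD, n = 3 each). The sum with SR4 was 1720 ± 91.9 CPM in PANC1 and 1931 ± 2.95 CPM in BXPC3. With lonidamine it was 1565 ± 30.2 and 1640 ± 44.8 CPM. SR4 raised 4 hydrolases and lowered 3 in PANC1 (35.0% and 36.7% of all genes), and 5 and 2 in BXPC3 (33.4% and 33.9%). Lonidamine raised 3 and lowered 2 in PANC1 (35.0% and 34.2%), and 3 and 4 in BXPC3 (34.8% and 32.7%). NEU1, a sialidase (chromosome 6, 31857659 to 31862906), had 56.7, 61.6 and 55.6 CPM with SR4, 62.9, 69.5 and 68.0 CPM with lonidamine, 82.6, 84.7 and 80.3 CPM with both and 69.9, 66.4 and 63.3 CPM with vehicle in PANC1. NEU1 in BXPC3 had 86.2, 92.3 and 91.7 CPM with SR4, 76.4, 75.8 and 74.0 CPM with lonidamine, 173, 168 and 174 CPM with both and 52.4, 57.7 and 52.6 CPM with vehicle. SR4 libraries lay below vehicle in PANC1 and above it in BXPC3. NEU1 fell by 0.20 ± 0.057 log2 with SR4 in PANC1 and rose by 0.73 ± 0.051 in BXPC3. With both compounds it rose by 0.36 ± 0.053 log2 in PANC1 and 1.67 ± 0.048 in BXPC3, and the response was lower in PANC1 by 1.35 ± 0.073 log2 (adjusted p = 6.22e-19).

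CTSL, a cysteine protease (chromosome 9, 87725519 to 87731393), had 43.8, 44.6 and 42.0 CPM with SR4, 65.7, 73.1 and 69.0 CPM with lonidamine, 60.02, 59.0 and 58.8 CPM with both and 37.2, 30.8 and 35.7 CPM with vehicle in PANC1. CTSL in BXPC3 stood at 135, 132 and 141 CPM with SR4, 167, 169 and 154 CPM with lonidamine, 279, 271 and 267 CPM with both and 99.5, 103 and 102 CPM with vehicle. Treated libraries were above vehicle in all 6 comparisons. CTSL rose with both compounds by 0.82 ± 0.064 log2 in PANC1 and 1.43 ± 0.043 in BXPC3. GAA, the glycogen-degrading glucosidase whose promoter is printed above, had 25.6, 30.1 and 28.9 CPM with SR4, 44.4, 46.8 and 43.7 CPM with lonidamine, 26.4, 24.1 and 20.8 CPM with both and 18.7, 20.003 and 19.3 CPM with vehicle in PANC1. Lonidamine libraries were highest in PANC1, where GAA rose by 0.54 ± 0.091 log2 with SR4, 1.20 ± 0.083 with lonidamine and 0.35 ± 0.091 with both. In BXPC3 GAA had 8.15, 7.85 and 8.42 CPM with SR4, 10.4, 9.92 and 8.77 CPM with lonidamine, 8.10, 10.9 and 9.83 CPM with both and 5.77, 5.45 and 3.96 CPM with vehicle. Treated libraries lay above vehicle, and GAA rose by 0.68 ± 0.16, 0.95 ± 0.16 and 0.93 ± 0.16 log2 in the same order.

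CTSB, a cysteine protease known for its release from leaky lysosomes (chromosome 8, 11842524 to 11869448), had 353, 381 and 359 CPM with SR4, 325, 309.9 and 312 CPM with lonidamine, 169, 172 and 163 CPM with both and 346, 310.5 and 324 CPM with vehicle in PANC1. CTSB had 381, 388 and 395 CPM with SR4, 371, 382 and 361 CPM with lonidamine, 198, 194 and 194 CPM with both and 485, 479 and 471 CPM with vehicle in BXPC3. Combination libraries lay below vehicle in both lines. CTSB fell with both compounds by 0.91 ± 0.043 log2 in PANC1 and 1.28 ± 0.035 in BXPC3. With SR4 it rose by 0.15 ± 0.041 log2 in PANC1 and fell by 0.31 ± 0.033 in BXPC3.

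GLA, the galactosidase (chromosome X, 101397803 to 101407925), had 33.7, 36.1 and 31.8 CPM with SR4, 22.8, 28.1 and 26.4 CPM with lonidamine, 50.1, 47.9 and 45.9 CPM with both and 58.4, 57.8 and 54.2 CPM with vehicle in PANC1. GLA had 31.2, 32.2 and 32.5 CPM with SR4, 24.8, 28.4 and 26.0 CPM with lonidamine, 28.3, 26.4 and 27.4 CPM with both and 62.0, 60.2 and 62.4 CPM with vehicle in BXPC3. All treated libraries lay below vehicle, least so with both compounds in PANC1. GLA fell in PANC1 by 0.75 ± 0.069 log2 with SR4, 1.16 ± 0.070 with lonidamine and 0.20 ± 0.064 with both, and in BXPC3 by 0.95 ± 0.062, 1.21 ± 0.065 and 1.16 ± 0.065 in the same order. CTSD, the aspartic protease and the most abundant member per length, fell with both compounds by 0.33 ± 0.040 log2 in PANC1 and 0.43 ± 0.038 in BXPC3, and CTSZ, a carboxypeptidase, by 0.64 ± 0.063 and 0.46 ± 0.040. With SR4 the CTSD libraries lay above vehicle in PANC1 and overlapped it in BXPC3. HEXA, a subunit of hexosaminidase, fell by 0.18 ± 0.065 log2 in PANC1, a call that ended without vehicle replicate 3 or combination replicate 2, or without the low-count filter (adjusted p of up to 0.0726). In BXPC3 HEXA fell by 0.13 ± 0.058 log2, and that call ended without vehicle replicate 1 or 3 or the unnumbered SR4 replicate or combination replicate 1, or by DESeq2's test (adjusted p of up to 0.339). These HEXA falls are those with both compounds. Its libraries lay above vehicle with lonidamine in each line and with SR4 in BXPC3, and SR4 libraries overlapped vehicle in PANC1. CTSA, which protects NEU1 from degradation, had 138, 144 and 139 CPM with SR4, 129, 119 and 129 CPM with lonidamine, 85.1, 84.2 and 79.7 CPM with both and 157, 151 and 164 CPM with vehicle in PANC1. CTSA in BXPC3 was at 235, 232 and 218 CPM with SR4, 173, 170.1 and 172 CPM with lonidamine, 166, 177 and 168 CPM with both and 183, 169.6 and 171 CPM with vehicle. Treated libraries all lay below vehicle in PANC1, and in BXPC3 those with SR4 lay above vehicle and the others overlapped it. CTSA fell by 0.88 ± 0.047 log2 with both compounds in PANC1, and in BXPC3 gave -0.03 ± 0.044 (adjusted p = 0.552). PLTP on the other strand overlaps CTSA at a mean of 116 CPM, and with both compounds it rose by 0.89 log2 in PANC1 and changed by -1.37 log2 in BXPC3.

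The 7 V-ATPase genes on the list differed between the lines in their response to both compounds. With both compounds 1 of 7 rose and 5 fell in PANC1, against 40.1% and 40.9% of all genes. In BXPC3, 5 rose and 1 fell, against 39.7% and 39.5%. The difference of the responses was called for all 7, lower in PANC1 for 6 and higher for 1, ATP6V1D, where the same difference was called for 61.9% of all genes. Of 13 other V-ATPase genes tested for it, 2 were lower in PANC1, 3 were higher and 8 were not called. Of the 7 differences, that of ATP6V1H was -0.24 ± 0.085 log2 and lost its call in 20 of 28 alternatives, with an adjusted p of up to 0.208. The summed level of the 7 was 575 ± 8.80 CPM with both compounds and 664 ± 5.77 CPM with vehicle in PANC1, against 992 ± 0.547 and 846 ± 13.5 CPM in BXPC3 (SD, n = 3 each). ATP6V1D, part of the rotating shaft (chromosome 14, 67294371 to 67360265), had 66.3, 74.8 and 59.6 CPM with SR4, 79.1, 80.2 and 76.2 CPM with lonidamine, 110.4, 114 and 114 CPM with both and 64.9, 57.9 and 65.1 CPM with vehicle in PANC1. ATP6V1D in BXPC3 was at 114, 115 and 117 CPM with SR4, 127, 114 and 115 CPM with lonidamine, 151, 152 and 152 CPM with both and 122, 122 and 121 CPM with vehicle. Combination libraries lay above vehicle in both lines. The rise with both was 0.89 ± 0.060 log2 in PANC1 and 0.33 ± 0.044 in BXPC3. On the other strand EIF2S1 and MPP5 overlap ATP6V1D at means of 181 and 124 CPM, and EIF2S1 changed by 0.57 log2 in PANC1 and -0.35 log2 in BXPC3.

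ATP6V0D1, of the membrane sector of the pump (chromosome 16, 67438014 to 67481237), had 25.1, 28.7 and 26.2 CPM with SR4, 45.6, 39.4 and 40.4 CPM with lonidamine, 30.8, 33.5 and 30.4 CPM with both and 42.1, 45.1 and 39.8 CPM with vehicle in PANC1. In BXPC3 ATP6V0D1 had 76.6, 79.2 and 75.6 CPM with SR4, 70.4, 70.4 and 70.1 CPM with lonidamine, 82.1, 85.1 and 85.3 CPM with both and 84.5, 81.2 and 78.4 CPM with vehicle. SR4 and combination libraries lay below vehicle in PANC1. ATP6V0D1 fell by 0.67 ± 0.079 log2 with SR4 and 0.38 ± 0.075 with both in PANC1, and gave 0.06 ± 0.049 with both in BXPC3 (adjusted p = 0.290).

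ATP6V1C1, a subunit that governs assembly of the pump, had 107, 101 and 106 CPM with SR4, 149, 159 and 155 CPM with lonidamine, 98.7, 94.2 and 99.8 CPM with both and 132, 126 and 129 CPM with vehicle in PANC1. ATP6V1C1 in BXPC3 had 103, 101 and 105 CPM with SR4, 112, 109 and 109.9 CPM with lonidamine, 125, 123 and 114 CPM with both and 87.8, 88.2 and 93.2 CPM with vehicle. SR4 and combination libraries were below vehicle in PANC1 and above it in BXPC3. With both compounds it fell by 0.35 ± 0.043 log2 in PANC1 and rose by 0.44 ± 0.047 in BXPC3. ATP6V1B2, which forms the hexamer with ATP6V1A, had 42.5, 42.2 and 43.5 CPM with SR4, 51.0, 52.2 and 50.7 CPM with lonidamine, 36.2, 33.5 and 40.9 CPM with both and 43.0, 45.8 and 44.3 CPM with vehicle in PANC1. ATP6V1B2 in BXPC3 was at 138, 143 and 138 CPM with SR4, 134, 129 and 136 CPM with lonidamine, 174, 171 and 175 CPM with both and 122, 122 and 111 CPM with vehicle. Combination libraries lay below vehicle in PANC1 and above it in BXPC3. ATP6V1B2 fell by 0.22 ± 0.067 log2 in PANC1 and rose by 0.56 ± 0.044 in BXPC3 with both compounds. ATP6AP1, an accessory subunit, had 185, 198 and 181 CPM with SR4, 192, 189 and 197 CPM with lonidamine, 173, 167 and 154 CPM with both and 199.8, 209 and 199.7 CPM with vehicle in PANC1. ATP6AP1 in BXPC3 was at 175, 192 and 179 CPM with SR4, 189, 182 and 189 CPM with lonidamine, 201, 203 and 207 CPM with both and 173, 164 and 149 CPM with vehicle. Every treated library lay below vehicle in PANC1 and above it in BXPC3, although the change with lonidamine in PANC1, -0.09 ± 0.043 log2, was not called. With both compounds ATP6AP1 fell by 0.25 ± 0.043 log2 in PANC1 and rose by 0.34 ± 0.048 in BXPC3. ATP6V1A, the catalytic subunit, fell in both lines, by 0.60 ± 0.047 and 0.22 ± 0.041 log2. ATP6V1H gave 0.08 ± 0.066 log2 in PANC1 (adjusted p = 0.240) and rose by 0.29 ± 0.055 in BXPC3.

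Levels before treatment were compared per kilobase of gene length. In PANC1 vehicle libraries the most abundant members were CTSD at 243, SQSTM1 at 81.7 and LAMP2 at 73.5 CPM per kb. BXPC3 vehicle libraries were led by CTSD at 223, CTSZ at 108 and LAMP1 at 87.7 CPM per kb. TFEB was lowest in both, at 0.505 CPM per kb in PANC1 and 0.220 in BXPC3. Between vehicle libraries of the lines 41 members differed, 22 higher and 19 lower in PANC1, where 41.3% of all genes were higher and 43.0% lower. The line and its count table are the same split, so a difference of the lines and one of the tables cannot be told apart. Members higher in PANC1 by the most were CALCOCO2 (2.18 ± 0.050 log2), GAA (1.93 ± 0.13) and ULK1 (1.52 ± 0.077), and those lower by the most were LAMP3 (-3.59 ± 0.12), GABARAPL1 (-2.98 ± 0.088) and CTSL (-1.56 ± 0.058).

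Both lines were then set side by side, since they share no samples. With both compounds 26 members rose in both lines, which is 26 of the 29 that rose in PANC1 and 26 of the 34 that rose in BXPC3, and 26.0% of the 11538 genes tested in both lines did so. The 6 that fell in both lines were CTSB, CTSD, CTSZ, GLA, HEXA and ATP6V1A, against 24.7% of all genes. Opposite directions were called for 6 members, against 16.3% of all genes: MITF and VMP1 rose in PANC1 and fell in BXPC3, and LAMP2, ATP6V1B2, ATP6V1C1 and ATP6AP1 fell in PANC1 and rose in BXPC3. With SR4, 22 members rose in both lines (19.8% of all genes), 3 fell in both (20.8%) and 6 were opposite (11.5%). Of those 6, MITF and CTSB rose in PANC1 and fell in BXPC3, and NEU1, CTSA, ATP6V1C1 and ATP6AP1 did the reverse. The ATP6AP1 changes with SR4 were -0.11 ± 0.043 log2 in PANC1, a call that ended without vehicle replicate 2 or SR4 replicate 1 or 3 (adjusted p of up to 0.114), and 0.16 ± 0.047 in BXPC3, a call that ended without vehicle replicate 3 (adjusted p of up to 0.0573). With lonidamine 27 rose in both (23.1%), 2 fell in both (21.3%) and 0 were opposite (7.64%).

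The size of the response differed between the lines for 23 members with SR4 (51.2% of all genes), 27 with lonidamine (41.8%) and 38 with both compounds (61.9%). LAMP3 and GABARAPL1 were among the 3 largest differences with each treatment. Their responses to both compounds were higher in PANC1 by 2.14 ± 0.15 and 1.79 ± 0.11 log2. With SR4 those differences were 2.63 ± 0.14 and 2.04 ± 0.11 log2 and with lonidamine 4.76 ± 0.13 and 0.74 ± 0.13 log2. WIPI1 responded less in PANC1, by 1.70 ± 0.14 log2 with SR4 and 0.70 ± 0.13 with lonidamine. With both compounds the difference between lines rests on a scaling that moved all genes by up to 0.08 log2 when a library was left out. There the differences of RB1CC1, CTSZ, GABARAP, ATG9A and ATP6V1H, of 0.16 to 0.26 log2 in size, lost their calls in 18 to 24 of 28 alternatives. With lonidamine the difference of LAMP2, 0.13 log2, lost its call in 28 of 28 alternatives, and that of VMP1, 0.21 log2, in 21 of 28.

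**Figure D4:**
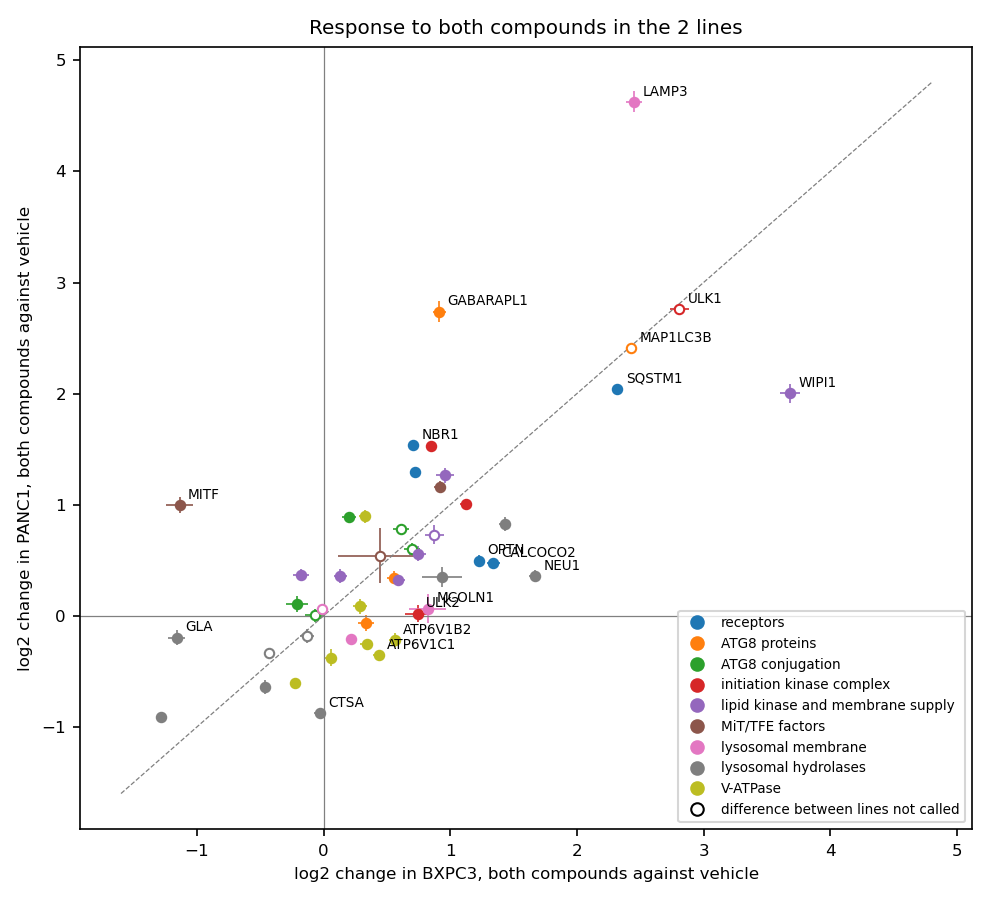
Log2 change with both compounds in PANC1 (vertical axis) against that in BXPC3 (horizontal axis) for the 48 genes, coloured by role, with SE bars, grey lines at 0 and a dashed line where the lines respond alike; open points are differences between lines that were not called. LAMP3 and GABARAPL1 lie above the dashed line, WIPI1 and NEU1 below it, and MITF lies at 0.996 log2 in PANC1 and -1.14 log2 in BXPC3.

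The combination was also set against each compound alone. In PANC1 39 members differed from SR4 alone (29 higher, 10 lower) and 43 from lonidamine alone (23 higher, 20 lower), where 33.2% and 33.4% of all genes were higher and lower than with SR4 and 37.1% and 37.5% than with lonidamine. In BXPC3 38 differed from SR4 alone (31 higher, 7 lower) and 39 from lonidamine alone (30 higher, 9 lower), where the shares of all genes were 30.3% and 30.5% against SR4 and 30.1% and 30.7% against lonidamine. In BXPC3, WIPI1 was 1.20 ± 0.058 log2 higher with both than with SR4 and 1.73 ± 0.062 higher than with lonidamine. CTSB was 1.07 ± 0.043 log2 lower with both than with SR4 and 0.84 ± 0.043 lower than with lonidamine in PANC1, and 0.98 ± 0.035 and 0.93 ± 0.035 lower in BXPC3.

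The departure is the change with both compounds minus the sum of the 2 single changes, on the log2 scale, and a negative value means that the combination stayed under that sum. It was called for 35 members in PANC1, 12 above and 23 below the sum, where 30.8% of all genes lay above and 30.0% below. In BXPC3 it was called for 27, 12 above and 15 below, where 23.7% of all genes lay above and 25.5% below. In PANC1 the most negative departures were those of LAMP3 (-4.79 ± 0.11 log2), ULK1 (-1.71 ± 0.064) and GAA (-1.40 ± 0.12), each of which rose with either compound alone. GLA (1.71 ± 0.099), MITF (0.96 ± 0.11) and NEU1 (0.57 ± 0.077) were the most positive of those called. In BXPC3 the most negative were ULK2 (-1.09 ± 0.13 log2), SQSTM1 (-0.82 ± 0.042) and WIPI1 (-0.75 ± 0.11), and the most positive were GLA (0.999 ± 0.098), MCOLN1 (0.52 ± 0.21) and NEU1 (0.45 ± 0.070). The MCOLN1 call ended without vehicle replicate 2 or lonidamine replicate 2 or 3 or the unnumbered SR4 replicate or combination replicate 1, 2 or 3, or by DESeq2's test (adjusted p of up to 0.185). For SQSTM1 and MAP1LC3B the departure in PANC1 was -1.24 ± 0.048 and -0.96 ± 0.054 log2, and that of MAP1LC3B in BXPC3 was -0.58 ± 0.053 log2, so both genes were highest with the combination and still under the sum.

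**Figure D5:**
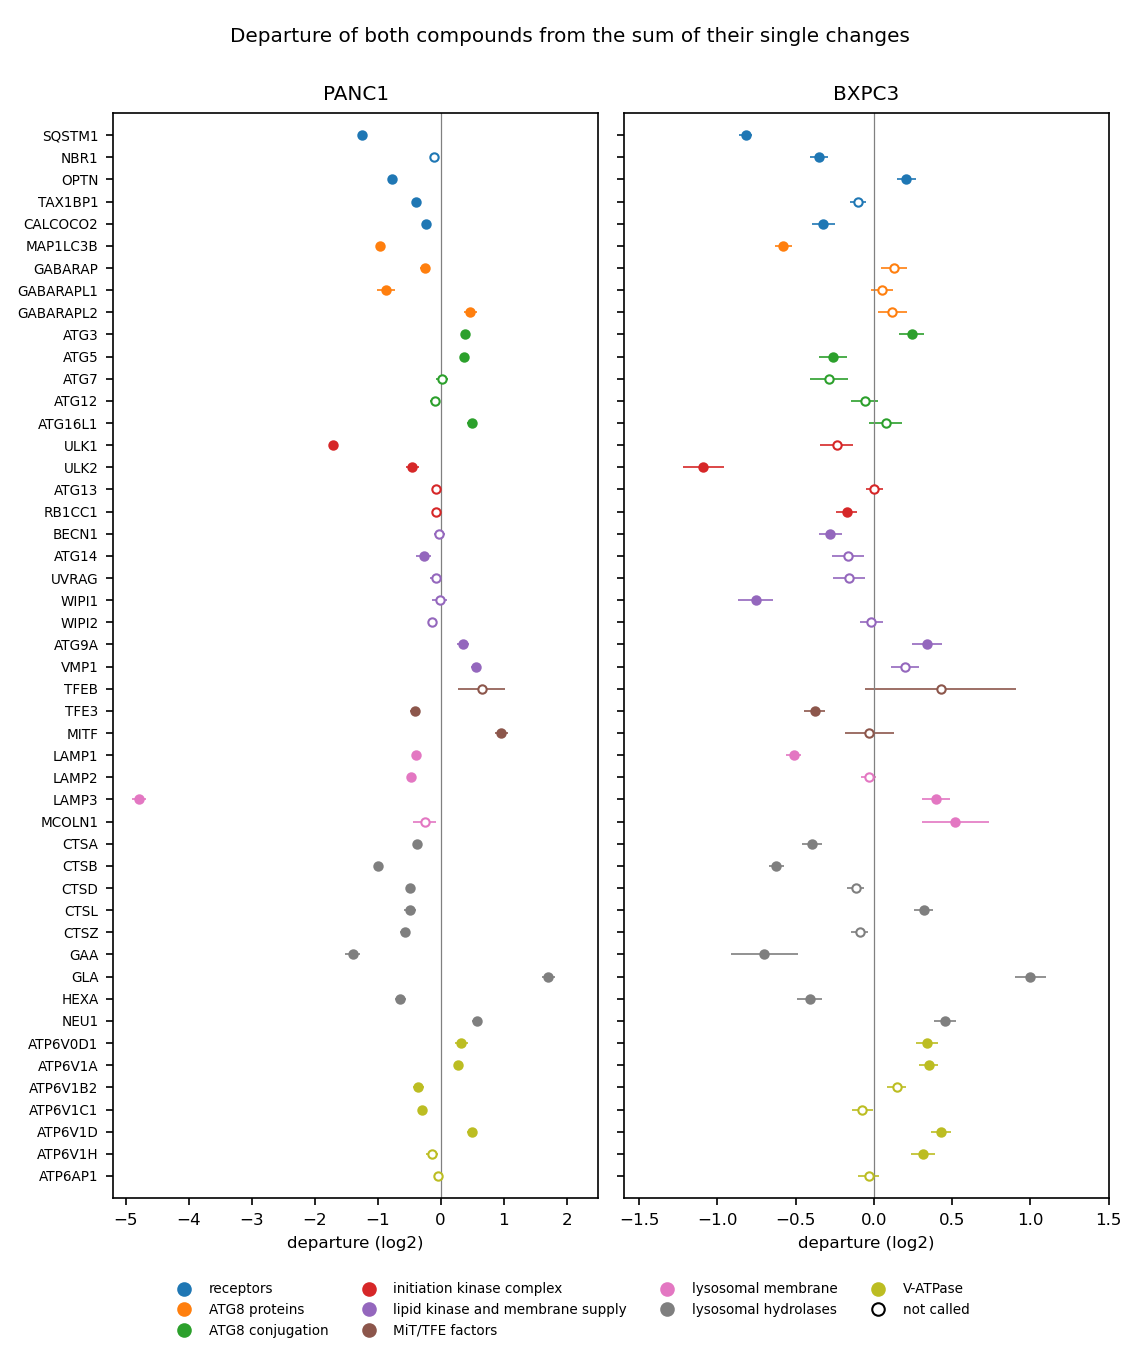
Departure of the combination from the sum of the single changes (log2, points with SE bars) for each of the 48 genes, by role, in PANC1 (left) and BXPC3 (right), whose horizontal scales differ; open points were not called. LAMP3 in PANC1 lies farthest from 0, at -4.79 log2, and GLA is the most positive in each line.

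Other genes of the pathway were counted in the same way, from a list of 115 entries. WDR45B was entered also as WIPI3, so the list held 114 genes, all in the tables. With both compounds 54 of 109 tested rose and 36 fell in PANC1, and 64 of 108 rose and 27 fell in BXPC3. Of all genes 40.1% rose and 40.9% fell in PANC1, and 39.7% rose and 39.5% fell in BXPC3. Of 14 further genes of initiation and membrane supply, 13 rose and 0 fell in PANC1 and 12 rose and 1 fell in BXPC3. ATG2B, a lipid transfer protein, rose by 2.29 ± 0.11 log2 and TMEM41B, a scramblase, by 1.79 ± 0.040 in PANC1, and ZFYVE1, a marker of sites of autophagosome formation, by 1.998 ± 0.081 and WDR45, a relative of WIPI1, by 1.67 ± 0.15 in BXPC3. Of 14 genes of fusion with the lysosome, 10 rose and 3 fell in PANC1 and 11 rose and 1 fell in BXPC3. EPG5, a tether, rose by 1.65 ± 0.083 and 0.95 ± 0.076 log2 in the same order, while VAMP8, a fusion protein, fell by 1.47 ± 0.093 in PANC1. PLEKHM1, an adaptor, rose by 1.64 ± 0.059 log2 in BXPC3.

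Of the other receptors 5 of 12 rose and 4 fell in PANC1 with both compounds, where 40.1% of all genes rose and 40.9% fell. In BXPC3, 5 of 10 rose and 3 fell, where 39.7% of all genes rose and 39.5% fell. Among the other receptors CCPG1, which serves the turnover of the endoplasmic reticulum, rose with both compounds by 2.20 ± 0.091 log2 in PANC1 and 2.18 ± 0.078 in BXPC3. BNIP3L, a receptor on mitochondria, rose by 1.40 ± 0.046 log2 in BXPC3, and TEX264, another receptor of the endoplasmic reticulum, fell by 0.90 ± 0.097 in PANC1. MAP1LC3A, which encodes LC3A, rose by 2.73 ± 0.17 and 1.92 ± 0.092 log2. Of the other genes of ATG8 proteins and their conjugation, 5 of 8 rose and 2 fell in PANC1, and 6 of 8 rose and 2 fell in BXPC3. There ATG4C, a protease that processes ATG8 proteins, rose by 0.93 ± 0.12 in PANC1, and ATG16L2, a relative of ATG16L1, rose by 1.83 ± 0.25 in BXPC3.

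Of the further hydrolases 6 of 30 rose and 16 fell in PANC1 with both compounds, and 11 of 29 rose and 12 fell in BXPC3, where 40.1% and 40.9% of all genes did so in PANC1 and 39.7% and 39.5% in BXPC3. CTSH, an aminopeptidase, fell by 2.03 ± 0.079 log2 in PANC1 and 2.04 ± 0.043 in BXPC3. GM2A, a cofactor of hexosaminidase, fell by 2.02 ± 0.065 in PANC1, and CTSC, a dipeptidyl peptidase, by 2.20 ± 0.055 in BXPC3. For lysosomal membrane and sorting genes, 9 of 20 rose and 8 fell in PANC1, and 12 rose and 4 fell in BXPC3. NPC1, the cholesterol exporter of the lysosome, rose by 2.82 ± 0.040 log2 and IGF2R, which sorts hydrolases, by 1.76 ± 0.086 in BXPC3. In PANC1 TMEM55B, a lysosomal lipid phosphatase, rose by 1.66 ± 0.078 log2 and LAPTM4B fell by 1.68 ± 0.046. Of the other V-ATPase genes 6 of 11 rose and 3 fell in PANC1, and 7 of 13 rose and 4 fell in BXPC3. ATP6V0A2 rose by 1.58 ± 0.061 log2 in PANC1 and 0.59 ± 0.053 in BXPC3, ATP6V0E1 fell by 1.31 ± 0.052 in PANC1, and ATP6V0E2 fell by 1.84 ± 0.18 in BXPC3.

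Nothing at hand states how strand was treated in counting, so reads of a member and of an antisense neighbour cannot be told apart. How reads shared with a neighbour on the same strand were assigned, and whether reads of near-identical paralogs were split, is not known. A gene with a mean of at least 1 CPM overlaps 18 of the 48 members.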

How the data were processed

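Whole-number read counts per gene, 1 table per line, were deposited by the authors with no normalization. STAR 2.7.8a, Partek, DESeq2 and GRCh38 are named in the submitters' processing notes, with no order or role. The sources used here name no counting tool, annotation or strand setting. Total RNA was extracted from treated cultures and made into mRNA libraries, per the labels' protocols.

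Columns were matched to samples by name. In the BXPC3 SR4 group 1 column carries a number that no sample title has, and it was used as an unnumbered replicate of that group. Genes were kept by edgeR's filter with a minimum count of 10. Each line was fitted with its 12 libraries in 4 groups (8 residual degrees of freedom) by edgeR 4.0.16 quasi-likelihood in R 4.3.3, with TMM scaling. Responses and vehicle levels were compared between lines in 1 fit of all 24 libraries. Each SE is the size of the log2 change divided by the square root of its F value. P-values were adjusted by Benjamini-Hochberg over all genes tested, with a threshold of 0.05. The members given in full were SQSTM1, MAP1LC3B and, per role, the 2 with the largest called change against vehicle and a mean log2 CPM of at least 2. To these were added the 3 most positive and 3 most negative called departures per line, the 3 largest differences between lines per treatment, and members called in opposite directions in the lines. For other pathway genes, up to 2 per role were named by their change with both compounds. The members, lists and rules were chosen with earlier results of these data known.

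Alternatives were DESeq2 1.42.0 size factors, its test, no low-count filter, a replicate term, only the groups compared, and leaving out each library. The fits were also run on simulated counts in which few genes were changed. Far more genes were called in these data, so that run cannot judge the scaling under such broad change. Promoters are RefSeq windows on GRCh38.p14, and gene positions are those of the deposited tables.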

Additional observations from a re-analysis of the deposited data

Results flagged for a closer look

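The responses of 12 members differed between PANC1 and BXPC3 by a test of the difference itself, either among the 3 largest differences of a treatment or with called changes in opposite directions. The difference was called for 23 members with SR4, 27 with lonidamine and 38 with both compounds, against 51.2%, 41.8% and 61.9% of all genes. Opposite directions were called for 6 members with SR4 and 6 with both compounds, against 11.5% and 16.3% of all genes. Each value below is the log2 response in PANC1 minus that in BXPC3, with its SE, from edgeR's fit of all 24 libraries. LAMP3 differed by 2.63 ± 0.14 with SR4, 4.76 ± 0.13 with lonidamine and 2.14 ± 0.15 with both compounds. GABARAPL1 differed by 2.04 ± 0.11, 0.74 ± 0.13 and 1.79 ± 0.11 in the same order. WIPI1 differed by -1.70 ± 0.14 with SR4 and -0.70 ± 0.13 with lonidamine. MITF, higher in PANC1 and lower in BXPC3 than vehicle, differed by 1.69 ± 0.12 with SR4 and 2.09 ± 0.13 with both compounds.

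Opposite directions with SR4 were also seen for NEU1 (-0.93 ± 0.077), CTSA (-0.55 ± 0.062), CTSB (0.46 ± 0.054), ATP6V1C1 (-0.50 ± 0.063) and ATP6AP1 (-0.27 ± 0.067). With both compounds they were seen for LAMP2 (-0.46 ± 0.052), VMP1 (0.51 ± 0.083), ATP6V1B2 (-0.82 ± 0.077), ATP6V1C1 (-0.83 ± 0.063) and ATP6AP1 (-0.63 ± 0.067). The largest adjusted p of these 20 differences was that of ATP6AP1 with SR4, 7.63e-04.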

How the results depend on the processing

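None of the 28 counts of members moved by more than 1.5 times, and no called value changed sign, under any alternative run. Leaving out 1 library gave 39 to 41 changed members with both compounds in PANC1 and 40 to 43 in BXPC3, 35 to 39 with SR4 in PANC1 and 36 to 39 in BXPC3, and 37 to 40 with lonidamine in PANC1 and 33 to 38 in BXPC3. It gave 34 to 35 departures in PANC1 and 25 to 29 in BXPC3, and 33 to 38 differences between lines with both compounds.

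For single members, the side of the threshold changed from called to not called 297 times and from not called to called 127 times when 1 library was left out, and stayed the same 11096 times. DESeq2's test ended 28 calls and added 5, its size factors ended 11 and added 8, and no filter ended 13 and added 3. Fitting only the groups compared ended 5 and added 4.

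Same-numbered libraries did not deviate together, with correlations of -0.135 to 0.0856 in PANC1 and -0.0754 to 0.0775 in BXPC3, so the numbers do not pair them. With the replicate block, 41 members changed with both compounds in PANC1 and 42 in BXPC3, and 13 calls of single members ended and 2 were added. Among those that ended were HEXA with both compounds and the MCOLN1 departure, both in BXPC3. At 8873041 to 11822495 counts per library, TFEB, at under 5 CPM in each group mean, had the lowest level per kilobase, and its 3 calls in PANC1 each ended under an alternative.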
